A study of Mus musculus with 3 samples.

Results

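The 10 genes described here belong to the Bcl2 family, which decides whether a cell keeps its mitochondria intact or dies by apoptosis. They were taken by symbol from the gene tables of 3 control libraries, and all 10 were found among 24421 gene symbols. The libraries came from hematopoietic stem and progenitor cells (HSPCs) of C57BL/6 bone marrow, sorted as cells with c-Kit and Sca-1 but no lineage marker. All 3 carried the genotype Cicflox/flox and tamoxifen treatment, that is, both alleles of the transcriptional repressor Capicua flanked by loxP sites, and the labels of these libraries name no Cre. The series compared 2 mouse groups, of which only the controls are described, so every value is a baseline level and every comparison is between genes or between control libraries. Whether each library stems from its own animal is not in the labels, and their spread may be technical. Every test here draws on this spread, and the chi-square test below sets it against read-counting noise only.

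Family members fall into 3 roles. The survival proteins Mcl1, Bcl2, Bcl-xL (encoded by Bcl2l1) and Bcl-w (Bcl2l2) bind and hold back the others. The effectors Bax and Bak (Bak1), once released, form pores in the outer mitochondrial membrane, through which cytochrome c escapes and starts caspase activation. The BH3-only proteins Bim (Bcl2l11), Bid, Puma (Bbc3) and Noxa (Pmaip1) report stress by binding survival proteins or by activating effectors. Mcl1 is known to be required for the survival of hematopoietic stem cells, Bcl-xL for that of late erythroid cells, and the genes of Bax, Puma and Noxa are classical targets of p53.

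The promoters of 4 members are shown, as those of the survival genes with the highest CPM (Mcl1 and Bcl2), of the BH3-only gene with the highest CPM (Bcl2l11) and of the gene with the widest spread between libraries (Bax). Each run is the 250 bases before the RefSeq start (build GRCm38.p6), 5′ to 3′ on the strand of the gene, with motif matches in capitals.
Mcl1, chr3:95658471-95658720, plus strand: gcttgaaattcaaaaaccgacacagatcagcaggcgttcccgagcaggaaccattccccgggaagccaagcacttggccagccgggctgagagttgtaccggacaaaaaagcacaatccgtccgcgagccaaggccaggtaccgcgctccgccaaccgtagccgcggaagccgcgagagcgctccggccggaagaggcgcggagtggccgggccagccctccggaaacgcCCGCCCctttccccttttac
Bcl2, chr1:106714291-106714540, minus strand: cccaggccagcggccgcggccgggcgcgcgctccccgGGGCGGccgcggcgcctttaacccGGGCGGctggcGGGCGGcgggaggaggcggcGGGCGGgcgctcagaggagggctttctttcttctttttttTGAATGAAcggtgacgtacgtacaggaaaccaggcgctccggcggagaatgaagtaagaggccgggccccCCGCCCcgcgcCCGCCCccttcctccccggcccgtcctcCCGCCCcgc
Bcl2l11, chr2:128125788-128126037, plus strand: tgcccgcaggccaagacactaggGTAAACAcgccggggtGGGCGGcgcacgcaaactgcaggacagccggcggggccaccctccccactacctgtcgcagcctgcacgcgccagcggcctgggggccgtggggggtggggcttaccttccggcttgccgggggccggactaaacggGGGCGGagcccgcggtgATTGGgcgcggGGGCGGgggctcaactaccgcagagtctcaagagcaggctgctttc
Bax, chr7:45466899-45467148, minus strand: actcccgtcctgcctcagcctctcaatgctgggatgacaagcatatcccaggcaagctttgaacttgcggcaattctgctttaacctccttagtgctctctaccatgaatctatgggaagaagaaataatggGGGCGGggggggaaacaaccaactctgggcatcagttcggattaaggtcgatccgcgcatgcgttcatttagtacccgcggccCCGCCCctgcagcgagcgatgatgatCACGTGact
Capitals mark matches on either strand to the GC box (GGGCGG), the CCAAT box (CCAAT), the E-box (CACGTG), the forkhead core (GTAAACA) and an octamer known for Capicua (TGAATGAA). The TATA box (TATAAA), a STAT pattern (TTCNNNGAA) and the other Capicua octamer (TGAATGGA) were searched too and were not found in any of the 14 windows of the 9 members looked up, in which a gene can have several windows. Of all windows of this length, 12.4% hold the TATA box, 7.02% the STAT pattern and 1.01% this octamer, and 33.9% hold the CCAAT box, found in 3 member windows of Bcl2l11 and Bbc3. A GC box was found in 10 of these 14 windows, against 32.7% of 32841 windows of the same length over all genes. The Bcl2 window held 7 GC boxes and 36 CpG dinucleotides, where the median window has 6 CpG. It was also the only member window with the Capicua octamer TGAATGAA, which 1.08% of all windows hold. The forkhead core was found in the Bcl2l11 window shown and in 1 of 3 Bbc3 windows, against 3.17% of all windows. The E-box was found in the Bax window and in 1 Bbc3 window, against 6.02%. These matches describe letters only, and no binding was measured.

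Levels are given as CPM, each library's read counts scaled to an equal total. The totals of gene counts were 30718562 for library 1, 25097769 for library 2 and 30032593 for library 3. The most that a count of 0 allows, 3 counts, was 0.0977, 0.120 and 0.0999 CPM. Library 1 stood apart, and the ribosomal RNA precursor Rn45s took 11.8% of its gene counts, where it took 8.20% in library 2 and 7.91% in library 3. The part of Rn45s in the member levels was tested only by leaving it out of the totals. By a chi-square test with Benjamini-Hochberg adjustment, 8328 and 8716 genes differed between it and libraries 2 and 3, against 6631 between libraries 2 and 3. The sort markers were present, with Kit at 826 ± 71.0 CPM and the Sca-1 gene Ly6a at 103 ± 9.50 CPM (SD, n = 3). All 8 HSPC markers reached 1 CPM, and their summed level was 3000.5, 2768 and 2606 CPM in libraries 1, 2 and 3. The 8 granulocyte and monocyte markers all reached 1 CPM and summed to 960.4, 1871 and 2986 CPM in the same order. Mpo, at 683, 1544 and 2403 CPM, made up most of this sum. Ngp, S100a8, S100a9 and Lcn2 were instead highest in library 1 and lowest in library 2. Of the other markers with 1 CPM or more, there were 2 of 6 for T and NK cells (summed level 97.4 to 111 CPM), 5 of 5 for B cells (53.4 to 60.2 CPM), 3 of 7 for mature erythroid cells (15.9 to 23.3 CPM), 2 of 4 for macrophages and dendritic cells (24.9 to 41.1 CPM) and 3 of 5 for stroma and endothelium (110.4 to 127 CPM). Nkg7, at 89.9, 83.0 and 97.5 CPM in libraries 1, 2 and 3, made up most of the T and NK sum, while Cd3e had 0, 0 and 2 counts and Cd3g 1, 0 and 4. Pecam1, at 110.1, 110.05 and 100.4 CPM, made up most of the stromal and endothelial sum, while the endothelial gene Cdh5 had 0, 14 and 7 counts. The 4 haemoglobin genes and Col3a1 had no count. In bulk RNA, fewer cells of a type and less RNA per cell cannot be told apart.

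The survival genes Mcl1 and Bcl2 had the highest CPM of the members, a scale on which long transcripts gain. Mcl1 (ENSMUSG00000038612.16, chromosome 3, 95658788 to 95663176, plus strand, GRCm38) had 9275 counts in library 1, 8755 in library 2 and 12781 in library 3, equal to 302, 349 and 426 CPM. The mean of 359 ± 62.4 CPM (SD, n = 3) placed it at rank 387 of all genes. Library 3 was the highest and library 1 the lowest, 1.41 times apart. Bcl2 (ENSMUSG00000057329.7, chromosome 1, 106538178 to 106714274, minus strand) had 8727, 7413 and 8824 counts, equal to 284, 295 and 294 CPM. The mean was 291 ± 6.11 CPM (SD, n = 3), and its coefficient of variation of 2.10% was the lowest of the 10 members, so the 3 libraries lay almost level.

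The other survival genes were far lower. Bcl2l2 (chromosome 14, 54883377 to 54888234, plus strand) lay at 21.4, 24.9 and 20.7 CPM in libraries 1, 2 and 3, with a mean of 22.3 ± 2.25 CPM (SD, n = 3). Its transcripts share 12.1% of their 50-base words with other annotated genes, chiefly the read-through gene Gm20521, so its count is uncertain. Bcl2l1 (chromosome 2, 152780668 to 152831728, minus strand) lay at 7.94, 7.61 and 8.89 CPM, with a mean of 8.15 ± 0.664 CPM (SD, n = 3), lower than Bcl2l2 in every library. The counts are per gene, so splice forms, such as the long and short forms of Bcl-xL and of Mcl1 that act in opposite ways, were not separated.

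The effector genes differed in level and in spread. Bak1 (chromosome 17, 27019810 to 27029009, minus strand) had 2635, 1706 and 2187 counts, equal to 85.8, 68.0 and 72.8 CPM in libraries 1 to 3. The mean was 75.5 ± 9.21 CPM (SD, n = 3), with library 1 the highest and library 2 the lowest. Bax (chromosome 7, 45461697 to 45466898, minus strand) had 163, 353 and 294 counts, equal to 5.31, 14.1 and 9.79 CPM. The mean was 9.72 ± 4.38 CPM (SD, n = 3), and the highest library exceeded the lowest 2.65 times, the widest ratio among the 10 members. Without library 1 this ratio was 1.44. Library 1 was thus the highest for Bak1 and the lowest for Bax. Of the Bak1 words 17.1% are shared with other genes, and of the Bax words 8.51%.

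The BH3-only genes formed a middle and a low pair. Bcl2l11 (chromosome 2, 128126038 to 128162547, plus strand) lay at 47.7, 49.7 and 55.3 CPM in libraries 1, 2 and 3, with a mean of 50.9 ± 3.93 CPM (SD, n = 3). Bid (chromosome 6, 120891930 to 120916853, minus strand), whose product is cut by caspase-8 and so links death receptors to mitochondria, lay at 33.6, 30.04 and 30.001 CPM, with a mean of 31.2 ± 2.04 CPM (SD, n = 3). The exons of Bid overlap those of its neighbour Bcl2l13 on the other strand over 628 bases, 17.7% of its exon length. Without a known strand setting, reads of this stretch cannot be assigned.

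The genes of Puma and Noxa lay near the bottom of the genes tested. Bbc3 (chromosome 7, 16308393 to 16318205, plus strand) had 29, 30 and 55 counts, equal to 0.944, 1.195 and 1.83 CPM in libraries 1 to 3, with a mean of 1.32 ± 0.457 CPM (SD, n = 3). Pmaip1 (chromosome 18, 66458533 to 66465565, plus strand) had 45, 45 and 56 counts, equal to 1.46, 1.79 and 1.86 CPM, with a mean of 1.71 ± 0.213 CPM (SD, n = 3). Every library was above the level that a count of 0 allows. Of the genes whose mean reached 1 CPM, 2.75% were lower than Bbc3, and 5.61% were lower than Pmaip1.

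**Figure D1:**
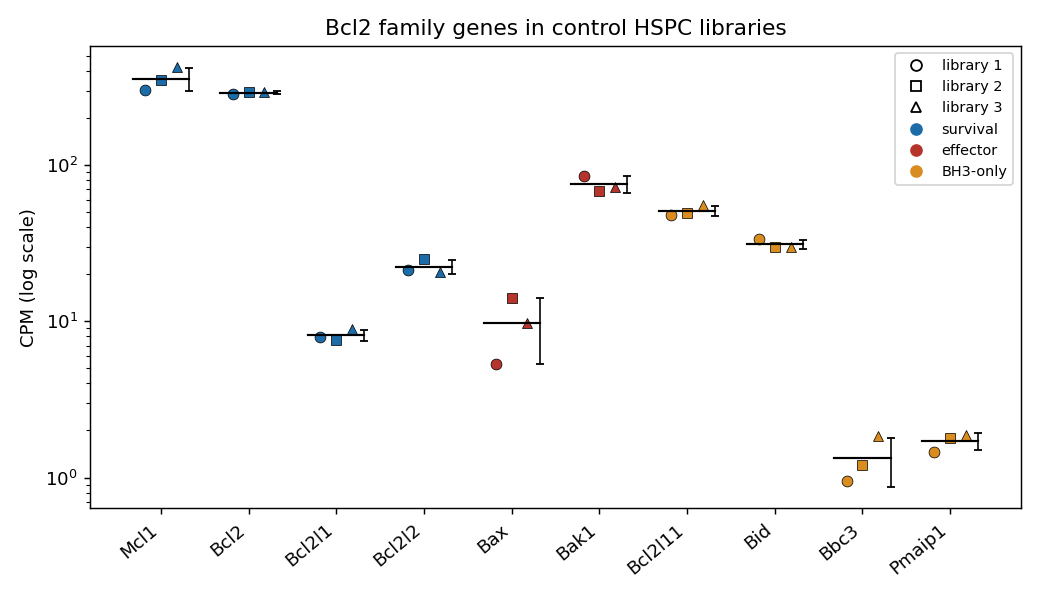
CPM of each member on a log axis, with 1 symbol per library, a line at the mean and a bar of 1 SD (n = 3), coloured by role. Mcl1 and Bcl2 lie at 359 and 291 CPM, Bbc3 and Pmaip1 at 1.32 and 1.71 CPM, and the 3 Bax libraries spread from 5.31 to 14.1 CPM.

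The members covered the whole range of expressed genes without standing apart as a set. All 10 reached 1 CPM, as did 12965 genes of the table. Their median was 26.8 CPM, against 25.9 CPM over all genes tested. Per kilobase of annotated exon, which removes the gain that long transcripts have in CPM, the median member lay at 6.25 CPM per kb and the median gene at 6.45 CPM per kb.

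Genes can be ranked against each other only per length. Mcl1 led at 105 ± 18.3 CPM per kb (SD, n = 3), above 98.1% of tested genes, with 88.3, 102 and 125 CPM per kb in libraries 1, 2 and 3. Bcl2 followed at 31.8 ± 0.667 CPM per kb and Bak1 at 31.4 ± 3.82 CPM per kb. Then came Bid at 8.79 ± 0.576, Bcl2l11 at 6.34 ± 0.490, Bax at 6.17 ± 2.78 and Bcl2l2 at 5.01 ± 0.504 CPM per kb. Bcl2l1 at 1.78 ± 0.145, Pmaip1 at 0.625 ± 0.0780 and Bbc3 at 0.623 ± 0.215 CPM per kb closed the order.

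Of the 9 pairs of neighbours in this order, 5 lay apart by more than their spread and in the same direction in 3 of 3 libraries. In log2(CPM per kb + 0.5), Mcl1 exceeded Bcl2 by 1.69 (SD 0.23), Bak1 exceeded Bid by 1.77 (SD 0.09), Bid exceeded Bcl2l11 by 0.44 (SD 0.18), Bcl2l2 exceeded Bcl2l1 by 1.27 (SD 0.21) and Bcl2l1 exceeded Pmaip1 by 1.02 (SD 0.11). Each of these gave an exact two-sided sign-flip p of 0.25, which is the floor for 3 libraries, or 0.45 when adjusted over the 9 pairs (Benjamini-Hochberg). The other 4 pairs differed by less than their spread and changed sign between libraries. These were Bcl2 over Bak1 at 0.03 (SD 0.20), Bcl2l11 over Bax at 0.13 (SD 0.62), Bax over Bcl2l2 at 0.19 (SD 0.57) and Pmaip1 over Bbc3 at 0.02 (SD 0.19), with exact p from 0.75 to 1, or 0.964 to 1 when adjusted.

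The place of Bcl2 turned on the length used. Divided by 9.157 kb of annotated exon it lay below Mcl1, and divided by its coding length of 708 bases it lay above, with Mcl1 minus Bcl2 at -0.20 (SD 0.23). In the same way Bid minus Bcl2l11 went from 0.44 to -0.69 with coding lengths.

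**Figure D2:**
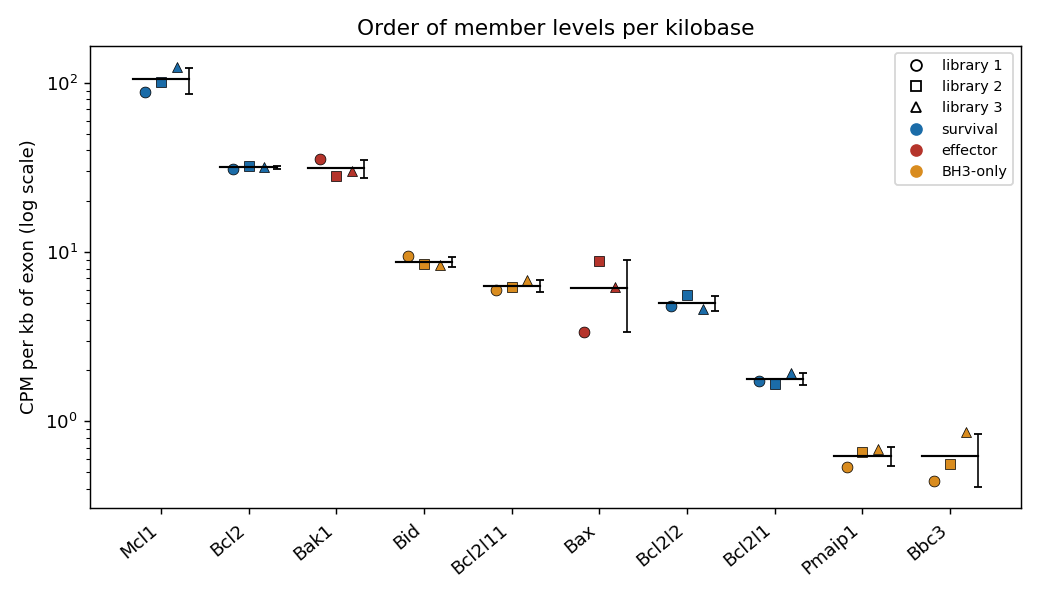
CPM per kb of annotated exon on a log axis for the 10 members in descending order, with 1 symbol per library, a line at the mean and a bar of 1 SD (n = 3). Mcl1 stands above all others, Bcl2 and Bak1 lie at one height, and Bcl2l11, Bax and Bcl2l2 overlap.

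With annotated exon as the length, Mcl1 led the survival genes in every library, and Bak1 led the effectors. On this scale Mcl1 held 48.7%, 52.4% and 57.5% of the summed level of the 10 members in libraries 1, 2 and 3, and Bcl2 held 17.1%, 16.6% and 14.8%. With coding lengths, an alternative chosen after seeing the data, the shares were 29.1%, 31.97% and 36.3% for Mcl1 and 38.4%, 37.96% and 35.2% for Bcl2, so Bcl2 was the higher in libraries 1 and 2 and Mcl1 in library 3. On the annotated exon scale, Bak1, the main effector by RNA, held 19.7%, 14.5% and 13.97%, and was 10.6, 3.16 and 4.87 times the level of Bax. On that same scale the survival genes as a group came to 72.5 ± 2.96%, the effectors to 19.2 ± 2.34% and the BH3-only genes to 8.33 ± 0.637% (SD, n = 3). Summed per kilobase of annotated exon, the survival genes were 3.23, 3.81 and 4.47 times the effectors and 7.69, 8.92 and 9.67 times the BH3-only genes in libraries 1, 2 and 3. In log2 the first ratio was 1.93 (SD 0.24), against 2.58 with coding lengths and 2.99 with no length. The second was 3.12 (SD 0.17), against 2.48 with coding lengths, 2.47 with the mean coding transcript and 2.99 with no length. The lead of the effectors over the BH3-only genes thus turned on the length used. With coding lengths the effectors were on average slightly below the BH3-only genes, and with no length they were about level. Per kilobase of annotated exon, both ratios were lowest in library 1 and highest in library 3, as was Mcl1 itself. These sums weigh RNA, not protein, and Mcl1 protein is known to turn over quickly.

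**Figure D3:**
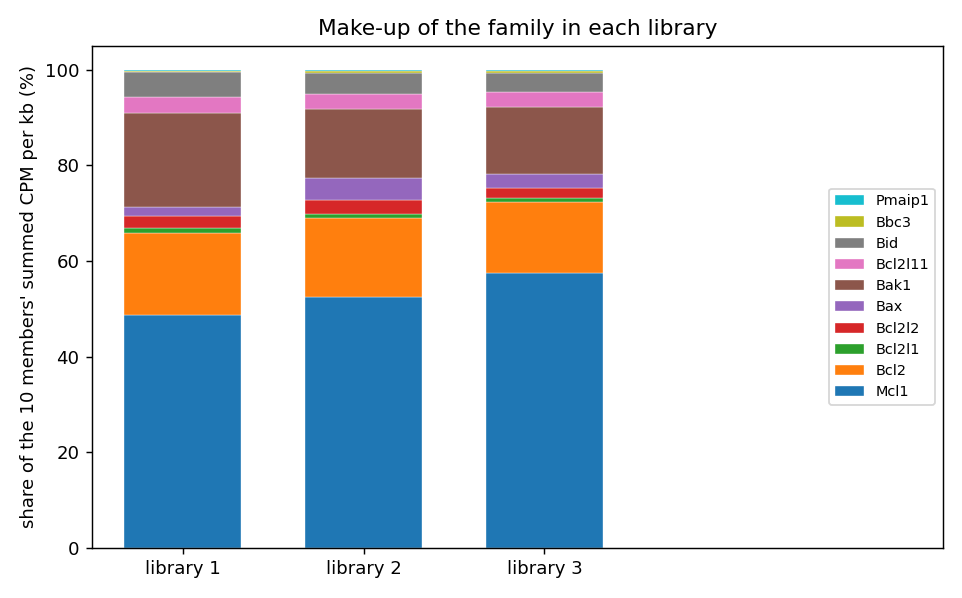
Share of each member in the summed CPM per kb of annotated exon of the 10 members, in percent, as stacked bars for libraries 1 to 3. Mcl1 takes from 48.7% to 57.5% of each bar and Bak1 from 13.97% to 19.7%.

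Differences between the control libraries were tested for each gene across the whole table. By the chi-square test, 8 of 10 members differed between the libraries beyond read-counting noise, against 82.6% of all genes tested, a share near that background. Mcl1 (adjusted p = 2.49e-141), Bax (2.71e-24) and Bak1 (5.95e-14) gave the smallest values, while Bcl2l1 (0.238) and Pmaip1 (0.472) did not pass. The Bcl2 call (adjusted p = 0.0296) was lost with edgeR's TMM scaling (0.698), DESeq2 size factors (0.577) or totals without Rn45s (0.797). By pairs, 6 members differed between libraries 1 and 2 (64.2% of all genes tested) and 7 between libraries 1 and 3 (67.2%). Without library 1, that is between libraries 2 and 3, it was the 4 genes Mcl1, Bcl2l2, Bcl2l11 and Bax (51.1% of all genes tested). Amplified reads are not independent molecules, so this test is a low bar.

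Among the members only Bax spread over 2-fold. Its range was 1.33 in log2(CPM + 0.5), and 8.7% of all tested genes had a range of at least 1. Next came Bbc3 at 0.69 (1.94 times in CPM, and 1.27 times without library 3) and Mcl1 at 0.49, and the narrowest was Bcl2 at 0.06. The median range of the members was 0.26, against 0.36 over all genes tested. By edgeR's quasi-likelihood test of each gene's spread over the trend of its abundance, 0 of 10 members passed an adjusted p of 0.05, against 0.00771% of all genes (1 gene, Elane). At an unadjusted p under 0.05 it was 1 of 10 members, against 4.54% of all genes. That member was Bax, whose adjusted p was 0.982 with edgeR. DESeq2 marked none of the members among its 30 dispersion outliers. With 3 libraries, a member that does not pass is not thereby shown to be stable. The smallest spread that these tests can detect is not given here.

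**Figure D4:**
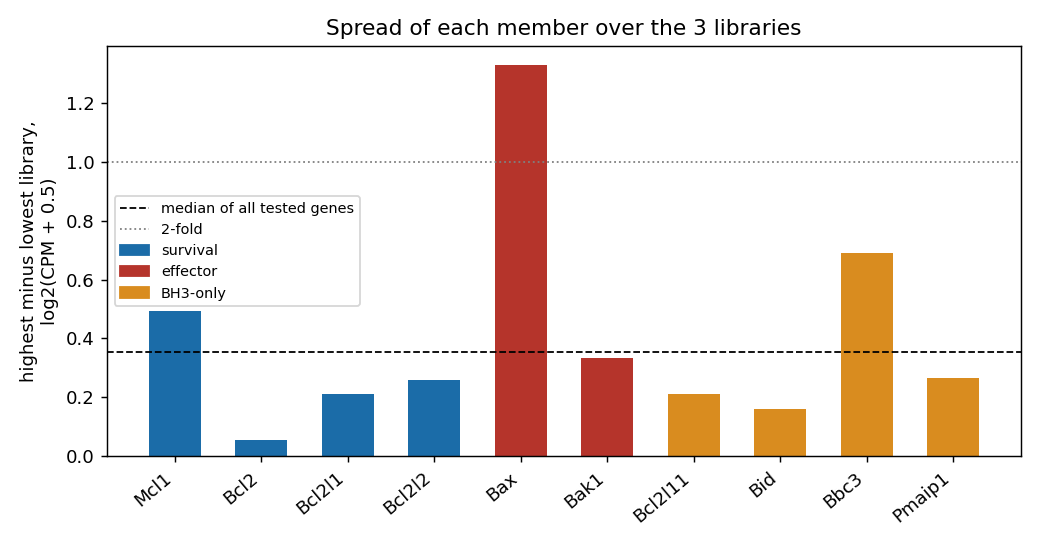
Highest minus lowest library in log2(CPM + 0.5) for each member, coloured by role, with the median of all tested genes (0.36, dashed) and the 2-fold line (dotted). Bax alone passes 2-fold and Bcl2 lies close to 0.

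Myeloid genes moved between the same libraries. Mpo, the myeloperoxidase gene, was at 683, 1544 and 2403 CPM in libraries 1, 2 and 3, the same order as Mcl1, and Elane, Prtn3 and Ctsg had this order too. The late granule gene Ngp was at 80.1, 15.4 and 34.1 CPM, with library 1 the highest and library 2 the lowest, as for Bak1, and S100a8, S100a9 and Lcn2 had this order. Bcl2l11, Bbc3 and Pmaip1 also had the Mcl1 order, and Bcl2, Bcl2l1, Bcl2l2, Bid and Bax had neither order. These orders depended on the scaling. With TMM scaling or DESeq2 size factors, Bcl2l11 was lowest in library 2 and lost the Mcl1 order, and Bid took the Bak1 order. With 3 libraries only a few orders are possible, and the share of all genes with each full order was not counted. In CPM, 32.5% of all genes tested were highest in library 3, and 44.3% were lowest in library 1. For the ends of the Bak1 order, 31.9% were highest in library 1, and 23.6% were lowest in library 2. Whether members had either order more often than other genes was not tested. The part of the myeloid genes in the member levels was not tested. By the largest log2 difference over the 3 libraries, the genes closest to Mcl1 were Pdia3 (0.12) and Rpl37 (0.12), and those closest to Bax were Col10a1 (0.05) and Creb5 (0.06), among 12964 tested genes and over only 3 libraries.

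The rest of the family was low apart from its distant members. Of the 5 other survival genes, 0 reached 1 CPM. The near-identical Bcl2a1b, Bcl2a1a and Bcl2a1d, genes of the survival protein A1, had 0, 6 and 13 counts, 0, 10 and 3 counts, and 1, 9 and 1 counts in libraries 1, 2 and 3. They share 79.2%, 69.0% and 79.5% of their 50-base words with other genes, so these counts are uncertain. Bcl2a1c and Bcl2l10 had no count. Of the 5 other death genes, 3 reached 1 CPM and all 3 passed the chi-square test, which 82.6% of all genes tested passed. They were the BH3-only gene Bad at 9.22 ± 1.001 CPM, Bmf at 3.79 ± 0.814 CPM and the effector-like gene Bok at 1.80 ± 1.04 CPM (SD, n = 3). Bik had 0, 3 and 3 counts, and Hrk had none. Of the 6 distant members, 5 reached 1 CPM and 4 of them passed the chi-square test (82.6% of all genes). In level they were led by Bnip3l, which marks mitochondria for autophagy, at 156 ± 2.95 CPM, Bcl2l13 at 68.8 ± 10.4 CPM and Bnip3 at 16.5 ± 1.77 CPM. Of their 50-base words 20.8%, 7.1% and 47.2% are shared with other genes, so these levels are uncertain. The lowest were Bcl2l14 at 4.18 ± 2.02 CPM and Bcl2l15 at 0.589 ± 0.599 CPM.

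The machinery downstream of the mitochondrion was expressed throughout. All 11 genes of the apoptosome and caspases reached 1 CPM, with a median of 58.9 CPM, and 10 of them passed the chi-square test, against 82.6% of all genes. Cycs, which encodes cytochrome c, lay at 121 ± 30.9 CPM (26.1% of its words are shared) and the caspase inhibitor gene Xiap at 114 ± 7.93 CPM (SD, n = 3). The lowest were Htra2 at 18.6 ± 1.87 CPM and Casp6 at 12.4 ± 3.64 CPM. Of the Htra2 words 33.8% are shared, and 43.7% of its exon length overlaps other genes, so its level is uncertain. Of 8 death receptor genes, 7 reached 1 CPM and 4 passed the chi-square test, against 82.6% of all genes. The initiator gene Casp8, whose product cuts Bid, lay at 254 ± 4.84 CPM, its inhibitor gene Cflar at 181 ± 18.4 CPM and the kinase gene Ripk1 at 87.8 ± 5.87 CPM. Tradd lay at 7.49 ± 0.818 CPM and the receptor gene Fas at 0.876 ± 0.887 CPM, with 58, 6 and 15 counts in libraries 1, 2 and 3. Of 5 genes that set the turnover of Mcl1 protein, all reached 1 CPM and 4 passed the chi-square test, against the same 82.6%. The ubiquitin ligase gene Huwe1 lay at 1298 ± 110 CPM, the deubiquitinase gene Usp9x at 601 ± 23.3 CPM and the ligase genes March5, Fbxw7 and Btrc at 73.6 ± 4.64, 42.9 ± 1.37 and 38.7 ± 2.58 CPM. Of these other genes of the family and pathway, the 31 with at least 1 CPM were tested by edgeR for spread, and 0 passed at an adjusted p of 0.05 (1 at an unadjusted p under 0.05).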

How the data were processed

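RNA of 3 control HSPC libraries was measured. Per the labels' protocols, 10 ng of RNA was primed at poly(A) tails and at random, amplified as cDNA and sequenced on an Illumina HiSeq. Values in the deposited files are raw counts by gene symbol, not normalized. Per the submitters' processing notes, the tools were TopHat2 2.0.9, HTSeq and DESeq2, with the build mm10. Gene model and strand setting: not given in the sources used here. Library sizes leave out 92 ERCC spike-in and 5 HTSeq category entries. Gene counts were 38.2%, 34.1% and 40.05% of all entries in libraries 1, 2 and 3.

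CPM were scaled to gene-row totals, and logs were log2(value + 0.5), which understates differences of low genes. Exon and coding lengths, positions and shared 50-base words came from GENCODE M21 (GRCm38), which matched 95.6% of symbols. Library differences were tested over genes whose mean reached 1 CPM by a chi-square test and by edgeR's quasi-likelihood fit (TMM, intercept only, robust, F test over the trend), at a Benjamini-Hochberg adjusted p of 0.05. Neighbours were compared by exact sign-flip permutation tests. The chi-square and edgeR scripts were checked on simulated data, with the outcome not given here. All 10 members are named, with the 3 highest and 2 lowest genes of each other list; a value that this rule would name is not reported here. Members and lists were chosen with earlier results of these data known. Floors cover counting error only, and each ± is the SD over the 3 libraries. Software was R 4.3.3, edgeR 4.0.16, DESeq2 1.42.0, Python 3.11.15, NumPy 2.4.6, SciPy 1.17.1 and pandas 2.3.3.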

Additional observations from a re-analysis of the deposited data

Results flagged for a closer look

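The ERCC spike-ins, synthetic RNAs that the comparisons above do not use, were counted in every library, with 455900, 239355 and 174913 counts in libraries 1, 2 and 3, or 1.48%, 0.954% and 0.582% of the gene counts. The amount added to each sample is not given in the sources used here. Scaled to these totals, an alternative chosen after seeing the data, each of the 10 members was highest in library 3 and lowest in library 1, as were 89.9% of all 12965 genes tested. The highest library then exceeded the lowest 2.64 times for Bcl2, 3.59 times for Mcl1, 2.16 times for Bak1 and 4.70 times for Bax, against 1.04, 1.41, 1.26 and 2.65 times on gene totals.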

How the results depend on the processing

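No paired analysis was possible because the libraries form a single group. The count of genes differing between libraries was 10707, and it ran from 6660 (without library 1) to 8709 with 1 library left out. The 6660 count covers genes whose mean over libraries 2 and 3 reached 1 CPM, and 6631 of the genes filtered on all 3 libraries differed between them. The 1 gene with excess spread became 16 with no expression filter and 30 by DESeq2 dispersion outliers, and 9 to 33 with 1 library left out. No member was called for excess spread under any of these settings. With the longest transcript as length, Bcl2 minus Bak1 was 0.36 and Pmaip1 minus Bbc3 -0.11 (log2). With the mean coding transcript they were 0.34 and -0.55. With coding lengths, Mcl1 minus Bcl2 was -0.20, Bcl2 minus Bak1 1.77, Bid minus Bcl2l11 -0.69, Bcl2l11 minus Bax 2.42, Bax minus Bcl2l2 -1.27 and Pmaip1 minus Bbc3 1.14. With 1 library left out, Bcl2 minus Bak1 ran from -0.057 to 0.14, Bcl2l11 minus Bax from -0.18 to 0.44, Bax minus Bcl2l2 from -0.034 to 0.51 and Pmaip1 minus Bbc3 from -0.041 to 0.13. Survival over effector genes was 1.93 in log2, 2.58 with coding lengths and 2.99 with no length. Survival over BH3-only genes was 3.12, 2.66 with the longest transcript, 2.47 with the mean coding transcript, 2.48 with coding lengths and 2.99 with no length. The pseudocounts 0.1 and 1 could not change the order, which was taken on levels without a pseudocount. They changed the size of differences between low genes. Bcl2l1 minus Pmaip1 was 1.38 with 0.1 and 0.77 with 1, against 1.02 with 0.5. Bbc3 and Pmaip1 rest on 29 to 56 counts a library, which limits their precision.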
